A study of Rattus norvegicus with 80 samples.

Results

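Osteopontin, encoded by Spp1, was followed in rat lungs for 90 days after fibres had been placed in the airways. It was read by the 1 probe that the platform annotation gives for Spp1, 1 gene of the 15925 genes measured, and its deposited values on all 80 arrays were set against the vehicle array of the same material and day. Spp1 was chosen by its differences from the vehicle in these same arrays, so its own values are described here and were not tested. The exposed groups received CNF1, CNF2 or CNF3, which are 3 preparations of cellulose nanofibrils, or multi-walled carbon nanotubes (MWCNT), at 0.5 mg/kg, 1.0 mg/kg or 2.0 mg/kg. The controls of a material received its own vehicle, which was distilled water that contained preservatives, and lungs were taken on days 1, 3, 7, 30 and 90. All animals were male Sprague-Dawley (Crl:CD[SD]) rats bought at an age of 7 weeks, for which the labels named no transgene or deletion, and each received a single instillation through the trachea. Their right lungs were perfused with saline before total RNA was extracted. Each of the 80 groups had 1 array. The protocol gave 4 rats per group, and it stayed unstated if the RNA on an array was pooled over them or came from 1. The descriptions of 73 arrays ended in replicate 4 and those of 7 arrays in replicate 3. Dose was labelled in mg/kg on the arrays, as used here, whereas the protocol spoke of 1 mg/kg throughout and gave the same 3 numbers as mg/mL of suspension.

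Osteopontin is a secreted, acidic and heavily phosphorylated glycoprotein that binds integrins through an arginine-glycine-aspartate motif and binds the hyaluronan receptor CD44. It was first known from bone matrix and is made in large amounts by activated macrophages, where it acts as an attractant and adhesion signal for other leukocytes. In the lung it is known from macrophages of granulomas and of fibrotic tissue, and its fragments, cut by thrombin and by matrix metalloproteinases, expose further integrin binding sites.

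The Spp1 gene lies on chromosome 14 of the RefSeq assembly GRCr8, on the minus strand. Its promoter is shown because it is the regulatory sequence next to the transcript that was measured. The window chr14:5619755-5620054 holds the 250 bases before and the 50 bases after the annotated start, 5′ to 3′ on the strand of the gene, with 3 motif matches in capitals.

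Spp1 promoter: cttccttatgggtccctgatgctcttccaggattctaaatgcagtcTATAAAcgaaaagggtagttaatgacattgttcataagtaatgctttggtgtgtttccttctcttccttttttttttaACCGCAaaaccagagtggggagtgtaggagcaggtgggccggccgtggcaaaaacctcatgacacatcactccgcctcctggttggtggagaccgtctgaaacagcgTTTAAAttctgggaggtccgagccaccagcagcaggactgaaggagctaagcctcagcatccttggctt

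The first capitals, TATAAA, begin at position -204 from the start, the second, ACCGCA, a form of the core that RUNX factors bind, at -126, and the third, TTTAAA, at -19. Searched on both strands, these letters occurred in 14.2%, 6.39% and 13.6% of 33469 rat promoter windows of the same table. No match overlapped another. The other RUNX core ACCACA (17.3% of windows), the AP-1 site TGANTCA (7.33%), the E-box CATGTG bound by MITF and TFE factors (14%) and AGGTCA, a single element of the paired site of the vitamin D receptor that other nuclear receptors share (16.2%), were not found in this window. The motifs were chosen with the sequence in view, and a match is a description of letters only.

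The deposited values behaved as logarithms centred near 0 for each probe, so they show differences between arrays and not how much RNA there was. Neither the base of the logarithm nor the normalization was stated, and the base was taken as 2 for the log2 values and folds below. Tissue identity could not be checked by level for the same reason, and signal, background and saturation were not among the values. Control spots without rat sequence had array medians that averaged -0.139 ± 0.246 in the vehicle, 0.156 ± 0.301 for 0.5 mg/kg, 0.00685 ± 0.385 with 1.0 mg/kg and 0.102 ± 0.348 after 2.0 mg/kg (SD, n = 20 arrays each). Over all rat probes the array median averaged -0.0503 ± 0.0421, 0.0962 ± 0.0295, 0.0243 ± 0.0936 and -0.0632 ± 0.066 in the same order of doses. The part of these shifts in the results was not tested, beyond the other scalings reported beside them.

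Spp1 was higher on every exposed array than on any vehicle array. In whole lung, more cells that express a gene and more of its RNA per cell cannot be told apart, for Spp1 as for the other genes below. After 2.0 mg/kg CNF1 its value was -0.07, 3.00, 4.29, 2.52 and 0.63 on days 1, 3, 7, 30 and 90, against -4.74, -4.32, -3.53, -5.15 and -4.14 in the CNF1 vehicle. The differences were 4.67, 7.33, 7.83, 7.67 and 4.77, or 25.4-fold, 161-fold, 227-fold, 204-fold and 27.3-fold. CNF1 thus gave the largest difference of the 60 exposed arrays, on day 7, and its days 1 and 90 stood apart as the lower ones.

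After 2.0 mg/kg CNF2 the Spp1 value was -1.18, 2.09, 2.73, 3.15 and 1.98 on the same days, against -4.27, -4.25, -3.47, -4.23 and -3.60 in the CNF2 vehicle. The differences of 3.08, 6.34, 6.20, 7.38 and 5.59 corresponded to 8.47-fold, 81.1-fold, 73.3-fold, 167-fold and 48.1-fold. Day 1 was the lowest day for CNF2 and day 30 the highest.

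After 2.0 mg/kg CNF3 the Spp1 value was 0.31, 1.80, 2.71, 3.74 and 3.17, against -3.34, -3.57, -4.15, -3.51 and -3.89 in the CNF3 vehicle. The differences were 3.66, 5.38, 6.86, 7.25 and 7.06, each larger than the one before up to day 30. In folds these were 12.6, 41.6, 116, 153 and 134, so that the last day was close to the highest.

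After 2.0 mg/kg MWCNT the Spp1 value was 1.29, 2.30, 1.69, 2.28 and 2.86, against -3.11, -4.07, -3.93, -3.78 and -3.87 in the MWCNT vehicle. The differences were 4.40, 6.38, 5.61, 6.06 and 6.73, or 21.1-fold, 83.2-fold, 49-fold, 66.9-fold and 106-fold. For MWCNT the largest difference was the one on day 90.

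**Figure D1:**
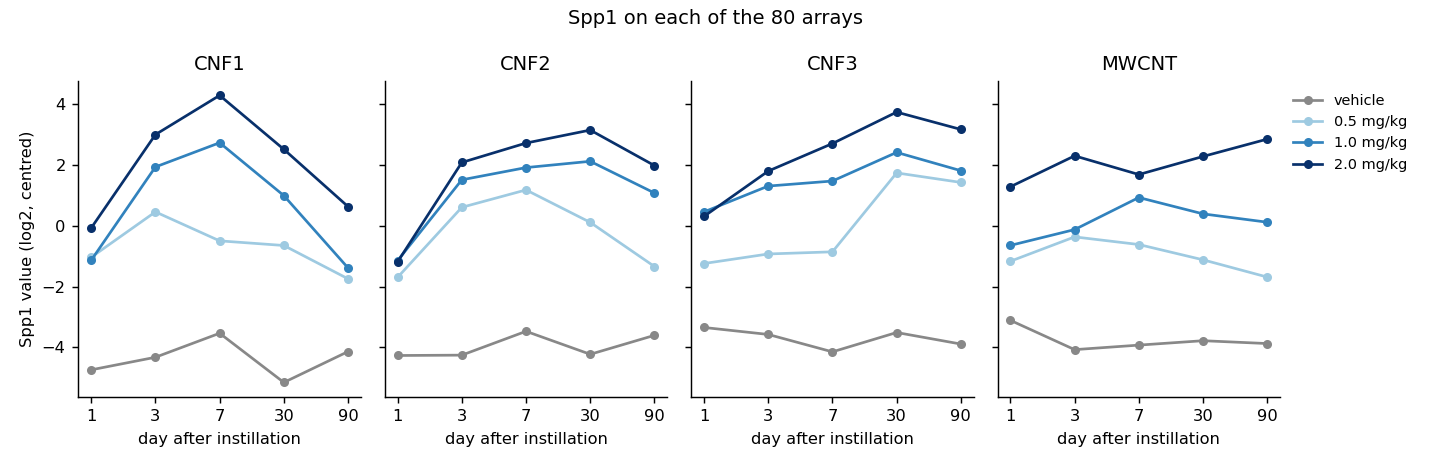
Spp1 value (log2, centred for the probe) on the vertical axis against the day after instillation, with days evenly spaced, in 1 panel per material; each point is 1 array, and lines join the arrays of the vehicle and of each dose. The 60 exposed arrays lie between -1.74 and 4.29 and the 20 vehicle arrays between -5.15 and -3.11.

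The lowest exposed array, 0.5 mg/kg CNF1 on day 90, had a Spp1 value of -1.74, against -3.11 on the highest vehicle array, MWCNT vehicle on day 1. This gap of 1.37 was the widest of all genes. Only 26 genes (0.163%) had all 60 exposed arrays above all 20 vehicle arrays, and the next widest gaps were those of Hk3 (a hexokinase of leukocytes, 0.47), Ctsk (the protease cathepsin K, 0.39) and Mmp12 (macrophage metalloelastase, 0.32). For the 20 arrays at 2.0 mg/kg alone, 164 genes (1.03%) lay above all vehicle arrays and the Spp1 gap of 1.93 ranked 2nd. The gap over 60 arrays was 1.24 after subtracting each array's median and 0.62 after quantile normalization, so the separation was present under each of these scalings.

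Spp1 averaged -3.95 ± 0.489 (SD, n = 20) in the vehicle, and this SD was larger than that of 85.4% of genes (median 0.172). The vehicle values of the 4 materials lay 1.63 apart on day 1 and 1.64 on day 30, against 0.53 on day 90. A difference from a single vehicle array carries this spread. With the mean of the 4 vehicles of a day as a common control, the mean difference at 2.0 mg/kg was 6.02 for CNF1 instead of 6.45, 5.70 for CNF2 instead of 5.72, 6.30 for CNF3 instead of 6.04 and 6.03 for MWCNT instead of 5.84.

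Across the 60 exposed arrays the difference ranged from 1.95 to 7.83 (3.85-fold to 227-fold) with a median of 4.78. The smallest was that of 0.5 mg/kg MWCNT on day 1, and 59 of the 60 exceeded 2. Among the differences of all genes on the same array, that of Spp1 was the largest in 16 of 60 comparisons and among the 10 largest in 46. Its lowest rank, 388, was at 0.5 mg/kg CNF3 on day 1.

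Spp1 was higher at each higher dose in most sets of arrays. In 20 sets, each 1 material on 1 day, the mean difference from the vehicle was 3.48 ± 1.13 after 0.5 mg/kg, 4.79 ± 1.24 after 1.0 mg/kg, and 6.01 ± 1.35 after 2.0 mg/kg (SD). The 4 arrays stood in order of dose in 17 of 20 sets, and in 20 of 20 after the array medians had been subtracted. The 3 exceptions were all on day 1, where CNF1 had -1.03 at 0.5 mg/kg and -1.13 at 1.0 mg/kg, CNF2 had -1.14 at 1.0 mg/kg and -1.18 at 2.0 mg/kg, and CNF3 had 0.46 at 1.0 mg/kg and 0.31 at 2.0 mg/kg.

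On the log2 scale a large share of the difference was present at the lowest dose, and in folds a smaller one. At 0.5 mg/kg the log2 difference was 58.4 ± 15% of that at 2.0 mg/kg (SD, n = 20 sets, 32.5% to 83.5%). The folds of the mean differences at 0.5 and 2.0 mg/kg were 12.9 and 87.7 for CNF1 and 13.4 and 52.6 for CNF2. They were 13.2 and 65.9 for CNF3 and 6.79 and 57.2 for MWCNT. The step between 0.5 and 1.0 mg/kg averaged 1.31 ± 0.89 (2.48-fold) and that between 1.0 and 2.0 mg/kg 1.22 ± 0.75 (2.34-fold). After quantile normalization the step from the vehicle to 0.5 mg/kg was 2.53 instead of 3.48, while the later steps were 1.47 and 1.09.

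At 0.5 mg/kg the values by day were -1.03, 0.46, -0.49, -0.65 and -1.74 for CNF1 and -1.69, 0.61, 1.18, 0.11 and -1.34 for CNF2. They were -1.24, -0.93, -0.85, 1.74 and 1.43 for CNF3 and -1.16, -0.36, -0.61, -1.12 and -1.69 for MWCNT. At this dose CNF3 stood above the other materials on days 30 and 90, by value and by difference. At 1.0 mg/kg the values were -1.13, 1.94, 2.74, 1.00 and -1.38 for CNF1 and -1.14, 1.52, 1.92, 2.12 and 1.08 for CNF2. They were 0.46, 1.31, 1.48, 2.42 and 1.82 for CNF3 and -0.64, -0.12, 0.93, 0.39 and 0.12 for MWCNT.

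**Figure D2:**
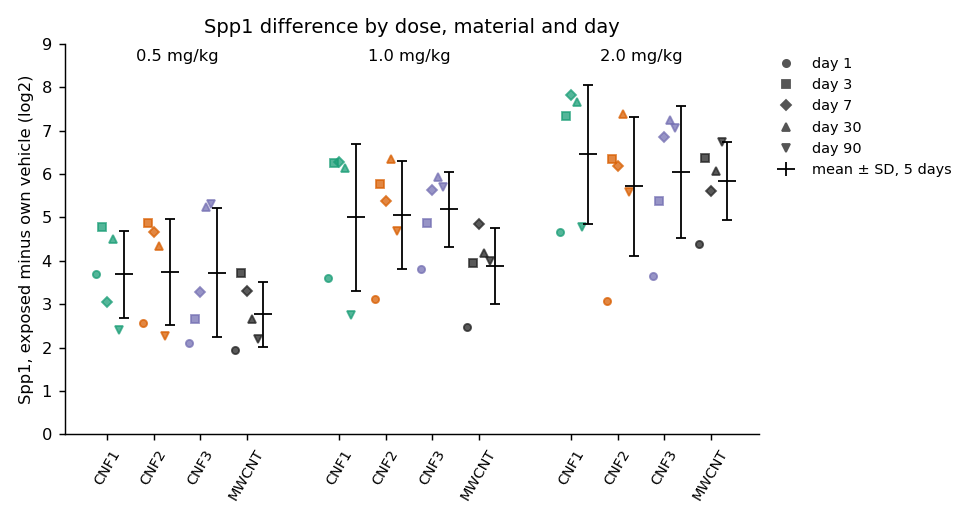
Difference in Spp1 between an exposed array and the vehicle array of the same material and day (log2, vertical axis), by dose and material; coloured points are the 5 days, with a symbol for each day, and black bars are the mean ± SD over the 5 days. All 60 differences are above 0, from 1.95 to 7.83, and the bars of the 4 materials overlap at each dose.

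Ordered by the mean difference over the 5 days (SD, n = 5 days), the groups at 2.0 mg/kg were CNF1 (6.45 ± 1.59), CNF3 (6.04 ± 1.53), MWCNT (5.84 ± 0.90) and CNF2 (5.72 ± 1.61). The groups at 1.0 mg/kg followed, with CNF3 (5.19 ± 0.87), CNF2 (5.06 ± 1.24), CNF1 (5.01 ± 1.70) and MWCNT (3.89 ± 0.87). The groups at 0.5 mg/kg were CNF2 (3.74 ± 1.22), CNF3 (3.72 ± 1.49), CNF1 (3.69 ± 1.00) and MWCNT (2.76 ± 0.74). In all 11 pairs of neighbours in this order the gap was smaller than the larger SD of the pair.

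MWCNT differed in how its dose steps were spread. Its difference was below the mean of the 3 cellulose materials on 5 of 5 days at 0.5 mg/kg, by -0.95 ± 0.69 (SD over days), and on 5 of 5 days at 1.0 mg/kg, by -1.20 ± 0.63. At 2.0 mg/kg it was below that mean on 2 of 5 days, with a mean of -0.23 ± 1.07. The step between 1.0 and 2.0 mg/kg averaged 1.95 ± 0.75 for MWCNT, against 1.45 ± 0.40 for CNF1, 0.65 ± 0.42 for CNF2 and 0.85 ± 0.66 for CNF3. These are descriptions of 5 days each. On day 1 at 0.5 mg/kg the MWCNT value (-1.16) was above CNF2 (-1.69) and CNF3 (-1.24), and its vehicle was the highest one (-3.11). After quantile normalization the mean difference at 1.0 mg/kg was 3.59 for MWCNT, against 4.00, 4.19 and 4.22 for CNF1, CNF2 and CNF3. At 0.5 mg/kg it was then 1.78, against 2.59, 2.87 and 2.91.

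Spp1 was high from day 1 and stayed high to day 90 with every material. Over the 4 materials at 2.0 mg/kg the difference averaged 3.95 ± 0.72 on day 1, 6.36 ± 0.80 on day 3, 6.62 ± 0.95 on day 7, 7.09 ± 0.71 on day 30 and 6.04 ± 1.05 on day 90 (SD, n = 4 materials). At 1.0 mg/kg the same days gave 3.25 ± 0.60, 5.22 ± 1.02, 5.53 ± 0.59, 5.65 ± 1.00 and 4.28 ± 1.24. At 0.5 mg/kg they gave 2.58 ± 0.79, 4.00 ± 1.04, 3.57 ± 0.73, 4.19 ± 1.09 and 3.04 ± 1.52. Day 1 was the lowest day at each dose, and the spread between materials was widest on day 90.

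The order of the materials changed between day 7 and day 90. At 2.0 mg/kg the difference on day 90 minus that on day 7 was -3.06 for CNF1, -0.61 for CNF2, 0.21 for CNF3 and 1.11 for MWCNT. On day 90 the order by difference was CNF3, MWCNT, CNF2 and CNF1, with 2.29 between the ends, whereas on day 7 it was CNF1, CNF3, CNF2 and MWCNT, with 2.21 between them. The mean of days 30 and 90 minus that of days 1, 3 and 7 was -0.39 for CNF1, 1.28 for CNF2, 1.86 for CNF3 and 0.93 for MWCNT. After quantile normalization the corresponding values were 0.19, 1.06, 0.11 and 0.03, so the sign for CNF1 turned and the size for CNF3 and MWCNT was a small part of that in the deposited values.

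Genes for proteins that osteopontin binds, or that act on it, were tested over the 5 days at 2.0 mg/kg against the vehicle of the same material (limma across all genes, Benjamini-Hochberg adjusted p under 0.05, values as log2 difference ± SE). With 1 array per group the SE comes from the scatter of all 80 arrays around the fitted means, and p-values measure only that scatter. By this rule 41.6%, 31.3%, 19.7% and 21.9% of all genes passed with CNF1, CNF2, CNF3 and MWCNT. In the same order 21.8%, 15.6%, 9.75% and 12.7% rose and 19.8%, 15.7%, 9.99% and 9.16% fell, and 5.71% rose and 4.35% fell with all 4 materials. No list count below was tested against these shares. The median over all genes was 0.0031, 0.037, 0.0253 and 0.0087.

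Of 10 receptor genes, 2 rose and 4 fell with CNF1, 3 rose and 2 fell with CNF2, and 2 rose and 3 fell with each of CNF3 and MWCNT, and the list medians were -0.06, -0.01, -0.10 and -0.11. The falls depended on single days, with 1 for CNF2 and 0 for CNF3 without day 1, and 0 for MWCNT without day 7. Cd44 encodes the hyaluronan receptor that also binds osteopontin. Its value had a lowest, median and highest of -0.05, 0.30 and 1.07 on the 20 arrays at 2.0 mg/kg, against -0.45, -0.28 and -0.14 on the 20 vehicle arrays. These ranges did not overlap, and Cd44 was higher than the own vehicle in 20 of 20 sets. It rose by 0.70 with CNF1, 0.63 with CNF2, 0.53 with CNF3 and 0.58 with MWCNT (SE 0.11 each, largest limma adjusted p 0.00054), a far smaller change than that of its ligand. Its 2 probes gave 0.69 and 0.71 for CNF1 and 0.68 and 0.39 for CNF3.

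Itgav, the alpha V chain of the integrins that recognise the arginine-glycine-aspartate motif, ranged from -0.29 over 0.21 to 1.17 at 2.0 mg/kg, against -0.59, -0.29 and -0.04 in the vehicle. The ranges overlapped, yet Itgav was above the own vehicle in 20 of 20 sets. It rose by 0.76, 0.71 and 0.62 with CNF1, CNF2 and CNF3 and by 0.45 with MWCNT (SE 0.13, largest limma adjusted p 0.0099). The MWCNT call ended when only the vehicle and 2.0 mg/kg arrays were fitted (adjusted p = 0.0599) and without day 1 (0.0710).

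No rise was called for the beta chains that pair with alpha V. Itgb3 fell by 0.36 ± 0.11 with MWCNT (limma adjusted p 0.019, 0.0536 without day 1 and 0.105 without day 7), and its values for CNF1, CNF2 and CNF3 were -0.06, -0.06 and -0.10. Itgb5 fell by 0.46 ± 0.10 with CNF1, and Itgb6, found on epithelium, fell by 0.26 ± 0.09 with CNF1 and by 0.33 ± 0.09 with CNF3. The Itgb6 calls ended without day 30 for CNF1 and without day 1 for CNF3, and with a common control for CNF1. Itgb1, shared by many integrins, and Itga5 did not pass with any material, with values from -0.14 to 0.11. These are means of probes that disagreed in direction. The 2 Itgb1 probes gave 0.32 and -0.11 for CNF1, 0.16 and -0.03 for CNF2, and 0.15 and -0.03 for CNF3. For Itga5 the 3 probes gave -0.04, -0.19 and 0.04 for CNF1.

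Itga9 and Itga8 encode chains that pair with beta 1. Itga9, whose integrin binds the site exposed when thrombin cuts osteopontin, fell by 0.38, 0.31, 0.21 and 0.21 with CNF1, CNF2, CNF3 and MWCNT (SE 0.07, largest limma adjusted p 0.021). Itga8, found on smooth muscle cells and fibroblasts, fell by 0.47, 0.32, 0.34 and 0.31 (SE 0.10, largest limma adjusted p 0.021). For both genes the CNF3 and MWCNT calls ended when only the vehicle and 2.0 mg/kg arrays were fitted, and also without day 7 or day 30 for MWCNT and without day 1 for CNF3, as the Itga8 call for CNF2 did. Their probes agreed in direction, but 1 of the 3 Itga8 probes gave only -0.10 for CNF1, against -0.78 for another. Itga4, the alpha 4 chain of leukocytes, rose by 0.41 ± 0.11 with CNF2 and had 0.20, 0.02 and 0.24 with CNF1, CNF3 and MWCNT.

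**Figure D3:**
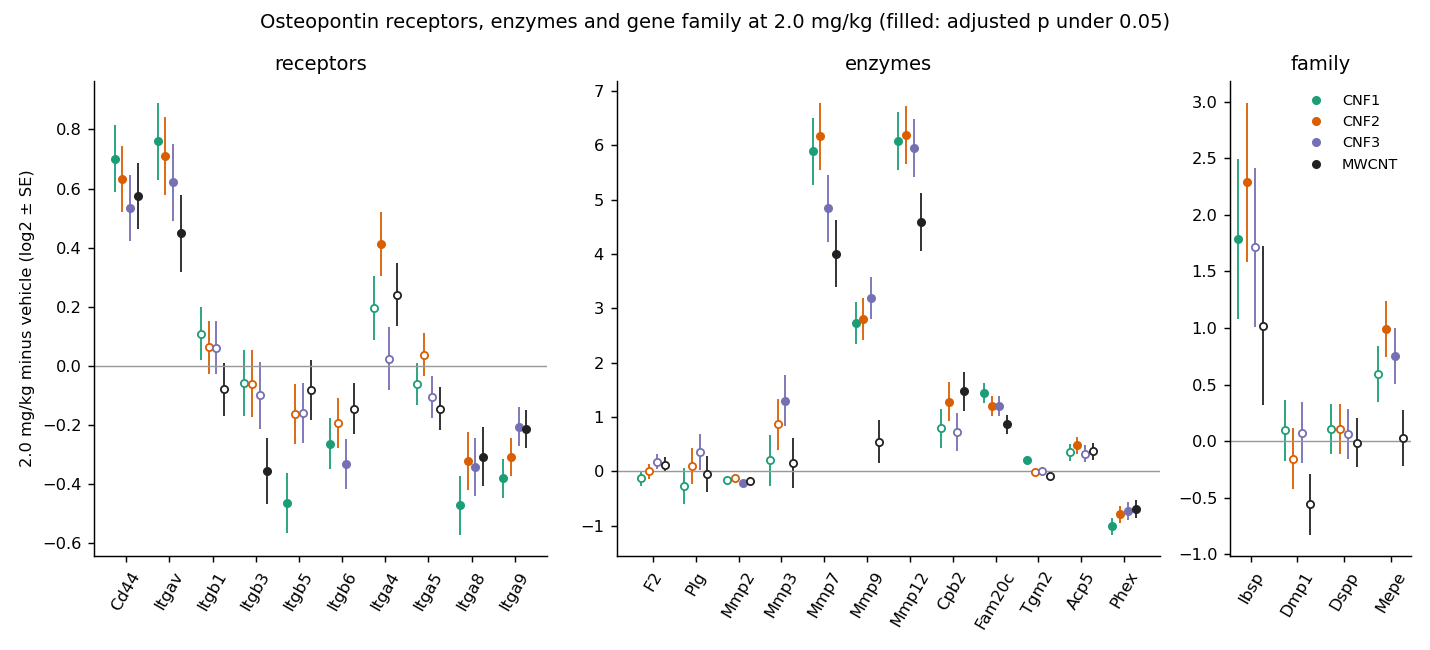
Difference at 2.0 mg/kg minus the own vehicle (log2 ± SE, vertical axis, limma over 5 days) for 10 receptor genes, 12 genes of enzymes that act on osteopontin and 4 genes of the osteopontin family, with 1 colour per material; filled points have an adjusted p under 0.05, and the 3 panels have different scales. Cd44 and Itgav lie above 0 with all 4 materials, while Mmp7 and Mmp12 reach from 4.01 to 6.19.

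Of 12 genes of enzymes known to cut or modify osteopontin, 5 rose and 1 fell with CNF1, 6 rose and 1 fell with CNF2, 5 rose and 2 fell with CNF3, and 4 rose and 1 fell with MWCNT. Their medians were 0.29, 0.67, 0.54 and 0.26. Mmp12, which cuts elastin and osteopontin, had -0.26, 1.75 and 3.67 as lowest, median and highest at 2.0 mg/kg, against -4.64, -4.11 and -2.72 in the vehicle, with no overlap. It rose by 6.07, 6.19, 5.95 and 4.60 with CNF1, CNF2, CNF3 and MWCNT (SE 0.53, largest limma adjusted p 2.2e-08).

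Mmp7, the matrilysin of epithelial cells, rose by 5.89, 6.17, 4.84 and 4.01 (SE 0.62, largest limma adjusted p 5.8e-06), and its lowest array at 2.0 mg/kg, -1.56, lay below its highest vehicle array, -0.92. Mmp9, the gelatinase B of neutrophils and macrophages, rose by 2.73, 2.81 and 3.19 with CNF1, CNF2 and CNF3 (SE 0.39) and had 0.55 with MWCNT (limma adjusted p 0.36). Its MWCNT effect minus the mean of the 3 cellulose effects was -2.36 ± 0.45 (limma adjusted p 0.0033), a contrast in which 0.829% of genes passed, 0.578% higher and 0.251% lower with MWCNT, although without day 90 there were 31 higher and 35 lower. That call ended without day 7 (adjusted p 0.0953), without day 30 (0.0524) and in the fit of the vehicle and 2.0 mg/kg arrays alone (0.256).

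Fam20c, the secretory pathway kinase that phosphorylates osteopontin, rose by 1.44, 1.20, 1.20 and 0.86 with the 4 materials in the same order (SE 0.18, largest limma adjusted p 0.00047), with 0.25 to 2.15 at 2.0 mg/kg and no overlap with -0.51 to -0.17 in the vehicle. Phex, a peptidase that degrades peptides of this family in bone, fell by 1.01, 0.79, 0.73 and 0.69 (SE 0.16, largest limma adjusted p 0.0012) and was below the own vehicle in 20 of 20 sets. Cpb2, the carboxypeptidase that trims thrombin-cut osteopontin, rose by 1.28 with CNF2 and 1.47 with MWCNT (SE 0.36), the second of which ended without day 90 (adjusted p 0.0894). F2 and Plg, the genes of thrombin and plasmin, which are made mainly in liver, did not pass with any material. Acp5 rose with CNF2 (0.48), Mmp3 with CNF3 (1.30) and Tgm2 with CNF1 (0.22), Mmp2 fell with CNF3 (-0.22), and each of these 4 calls ended without at least 1 of the days.

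Genes near Spp1 were tested as well. In RefSeq order Mepe and Ibsp follow Spp1 on one side, with Dmp1 and Dspp after them, all of which encode matrix proteins of bone and teeth related to osteopontin. Of these 4, 1 rose with CNF1, 2 with CNF2, 1 with CNF3 and 0 with MWCNT, and 0 fell with any material (limma). At an unadjusted p under 0.05 the counts were 2, 2, 2 and 0 higher and 0, 0, 0 and 1 lower. Ibsp, bone sialoprotein, rose by 1.79 with CNF1 and 2.29 with CNF2 (SE 0.70, limma adjusted p 0.036 and 0.01). With CNF1 its differences were 5.70 and 3.96 on days 1 and 3, then -1.12, 0.00 and 0.39, and that call ended without either of the first days. With CNF2 they were 1.51, 5.39, 1.12, 1.51 and 1.91, day 3 stood out, and the call ended without it. On day 1 the Ibsp difference exceeded that of Spp1 for CNF1 (4.67), and for CNF3, where Ibsp had 4.90 and Spp1 3.66. Mepe rose by 0.99 with CNF2 and 0.75 with CNF3 (SE 0.25), the second of which ended without day 1, 3 or 7.

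On the other side the nearest genes with a probe of 1 symbol here were Abcg3l1 and Abcg3l3, transporter genes. In the order of protein-coding genes they lie at -3 and -11 from Spp1. Pkd2 and Thoc2l, which lie closer, had no such probe. Abcg3l1 fell by 0.49 with CNF1 and 0.35 with CNF3 (SE 0.11), and Abcg3l3 by 0.65, 0.42 and 0.39 with CNF1, CNF2 and CNF3 (SE 0.11), while neither passed with MWCNT. Both CNF3 calls ended without day 1.

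Of 12 transcription factors known to act on Spp1, 7 rose and 2 fell with CNF1, 6 rose with CNF2, 6 rose and 1 fell with CNF3, and 3 rose with MWCNT (medians 0.36, 0.29, 0.26 and 0.17). The count of rises was 3 for CNF2 without day 7, 3 for CNF3 without day 1, 7 or 30, and 1 for MWCNT with the vehicle and 2.0 mg/kg arrays alone. Spi1, which encodes the macrophage factor PU.1, rose by 0.81, 0.93, 0.74 and 0.72 with CNF1, CNF2, CNF3 and MWCNT (SE 0.15, largest limma adjusted p 0.00037). Mitf, a factor of macrophages, osteoclasts and pigment cells, rose by 1.15, 0.79 and 0.59 with the 3 cellulose materials (SE 0.17) and had 0.15 with MWCNT. The CNF3 call of Mitf ended without day 7 (adjusted p 0.0725) or day 30. Runx2, the bone factor of the RUNX family, rose by 0.45, 0.53 and 0.30 with CNF1, CNF2 and CNF3 (SE 0.10), but its 5 probes disagreed, from -0.19 to 1.36 for CNF1, and the CNF3 call ended without any of days 1, 3, 7 or 30. Ets1 fell by 0.44 with CNF1 and by 0.34 with CNF3 (SE 0.08).

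The 10 genes whose values were most like those of Spp1 over the 80 arrays included several known from macrophages. Pearson r was 0.94 for Mmp12, 0.93 for Lilrb4, an inhibitory receptor of myeloid cells, 0.93 for Gpnmb, a glycoprotein of lysosome-rich macrophages, 0.91 for Bhlhe41, a transcription factor of alveolar macrophages, and 0.91 for Cd68, a lysosomal protein of macrophages. It was 0.91 for Meis3, Trem2 (a lipid-sensing receptor of macrophages), Lgals3 (galectin 3) and Hk3, and 0.90 for Ctsk. In all 11 genes exceeded 0.9 and 93 exceeded 0.8, and the median over all genes was 0.0378. The arrays share their vehicles, days and array-wide shifts, and the vehicle and exposed arrays form 2 clouds. Within the 60 exposed arrays r for the 10 genes was 0.73 to 0.87, and within the 20 vehicle arrays it was 0.08 to 0.21.

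The most unlike genes were Parva and Zeb1 (r -0.73 each), C1qtnf7 and Slc6a4 (-0.72 each) and Acvrl1 (-0.71). Slc6a4 encodes the serotonin transporter, which lung endothelium uses, and Acvrl1 a receptor of endothelial cells. Slc6a4 was 0.02 or lower on all 20 arrays at 2.0 mg/kg, against at least 0.14 on all vehicle arrays, a full separation downward that 0.201% of genes showed. It fell by 0.88, 0.68, 0.69 and 0.48 with CNF1, CNF2, CNF3 and MWCNT (SE 0.11, largest limma adjusted p 0.0012). Slc6a4 was picked by its r with Spp1 over these same arrays, in which Spp1 itself separated exposed from vehicle arrays. Its fall, its p-value and its separation are therefore not independent of that choice.

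**Figure D4:**
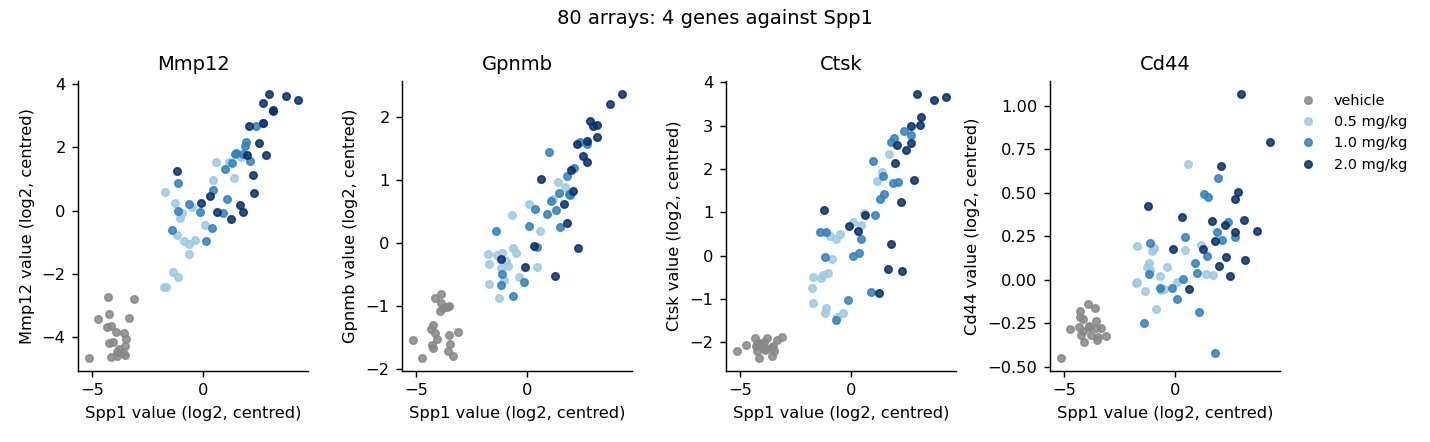
Values of Mmp12, Gpnmb, Ctsk and Cd44 (log2, centred, vertical axes) against the Spp1 value (log2, centred, horizontal axes) on the 80 arrays, coloured by dose. The 20 vehicle arrays form a cloud at the lower left, and among the exposed arrays Mmp12, Gpnmb and Ctsk climb with Spp1 (r 0.84, 0.87 and 0.80 over 60 arrays), Cd44 less so (0.50).

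Gpnmb, Trem2 and Ctsk were among the genes most like Spp1 over these arrays, in which Spp1 itself separated exposed from vehicle arrays. Their rises and p-values against the vehicle are therefore not independent of that likeness. Gpnmb ranged from -0.53 over 1.22 to 2.36 at 2.0 mg/kg, against -1.83, -1.42 and -0.81 in the vehicle, with no overlap. It rose by 2.57, 2.49, 2.56 and 1.88 with the 4 materials (SE 0.27, largest limma adjusted p 1.6e-06). Trem2 rose by 2.83, 2.57, 2.47 and 2.39 (SE 0.35) and its ranges overlapped, with -1.16 to 2.52 at 2.0 mg/kg and -1.95 to -0.55 in the vehicle. Ctsk rose by 4.46, 4.48 and 4.12 with CNF1, CNF2 and CNF3, and by 2.28 with MWCNT (SE 0.39). The Ctsk effect of MWCNT minus the mean of the cellulose effects was -2.07 ± 0.44 (limma adjusted p 0.01), which ended without day 7 (0.237), without day 30 (0.1) and with the vehicle and 2.0 mg/kg arrays alone (0.326).

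Of 12 genes known from osteopontin-high macrophages, 11 rose and 1 fell with CNF1, 10 rose with CNF2, 11 with CNF3 and 9 with MWCNT, and 9 rose with all 4 materials, as 5.71% of all genes did. The medians were 1.23, 1.17, 1.23 and 1.05. Their mean on an array was -0.28 to 1.45 at 2.0 mg/kg, against -0.86 to -0.49 in the vehicle, and correlated with Spp1 with r = 0.92 over the 80 arrays and 0.87 over the 60 exposed. This list was drawn up with earlier results of these arrays known and holds Ctsk, Gpnmb, Trem2, Lgals3 and Cd68, so it is not independent of the likeness above.

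Other cell markers moved beside Spp1 in the same arrays, and their part in its differences was not tested. Of 8 monocyte and macrophage markers, 4 rose and 2 fell with CNF1 (0 fell without day 3), and 5, 4 and 5 rose with CNF2, CNF3 and MWCNT, with a list mean of -0.39 to 0.72 at 2.0 mg/kg, against -0.51 to -0.24 in the vehicle. Itgam, the alpha M integrin of myeloid cells, rose by 2.65, 2.55, 2.69 and 2.12 (SE 0.37). Of 6 alveolar macrophage markers, 1, 2, 1 and 3 rose (1 for CNF2 without day 30 and for MWCNT without day 90) and 1 fell with each material, and the list mean was -0.85 to 1.26 at 2.0 mg/kg, against -0.83 to -0.02 in the vehicle. Fabp4 rose with all 4 materials (1.80, 1.69, 2.24 and 1.44, SE 0.41), although the CNF2 and MWCNT calls ended with the vehicle and 2.0 mg/kg arrays alone, and Car4, also a gene of capillary endothelium, was the member that fell.

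Of the 3 osteoclast-like markers measured, 2 rose with every material, Atp6v0d2 by 3.70, 4.51, 3.95 and 2.38 (SE 0.50) and Dcstamp, needed for the fusion of macrophages, by 2.02, 2.00, 2.11 and 0.96 (SE 0.27). The list mean was -1.10 to 2.46 at 2.0 mg/kg, against -1.67 to -0.68 in the vehicle. The MWCNT call of Dcstamp ended without day 30 or day 90. Of 6 neutrophil markers, 4 rose with MWCNT and 0 with the cellulose materials (limma, where 1, 0 and 1 were higher at an unadjusted p under 0.05 with CNF1, CNF2 and CNF3), while 2, 1 and 0 fell with these (1 for CNF1 without day 3, 7 or 30). Cd177, a surface protein of neutrophils, rose by 3.51 ± 0.32 with MWCNT. The list mean of the 6 neutrophil markers was -1.53 to 1.81 at 2.0 mg/kg, against -0.60 to 0.17 in the vehicle.

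Markers of alveolar type 1 cells, club cells, fibroblasts and endothelium fell in part, and no rise was called for them. All 5 alveolar type 1 markers fell with CNF1, CNF2 and MWCNT and 3 with CNF3, with a list mean of -0.93 to 0.32 at 2.0 mg/kg, against 0.06 to 0.44 in the vehicle. With the vehicle and 2.0 mg/kg arrays alone the MWCNT count was 1 and the CNF3 count 0, and these were 1 without day 7 for MWCNT and 0 without day 1 for CNF3. Of 4 club cell markers, 4, 4, 2 and 0 fell with CNF1, CNF2, CNF3 and MWCNT, or 4, 4, 3 and 2 by unadjusted p (list mean -1.61 to 0.39, against 0.05 to 0.50). The CNF3 count was 1 without day 1 or day 7, and 0 with the vehicle and 2.0 mg/kg arrays alone. Of 5 fibroblast markers 3, 3, 1 and 3 fell (-0.84 to 0.02, against -0.12 to 0.37), and of 5 endothelial markers 3, 3, 2 and 3 fell (-1.18 to 0.06, against -0.05 to 0.26), where the CNF3 endothelial count was 1 without day 1. Of 6 alveolar type 2 markers, 1, 0, 0 and 3 rose, or 2, 1, 1 and 4 by unadjusted p (-0.19 to 0.51, against -0.25 to 0.04). All 3 B cell markers fell with each cellulose material and 0 passed with MWCNT, as by unadjusted p (-0.70 to 0.27, against -0.24 to 0.43). The CNF2 count was 0 without day 1 or day 3 and 1 without day 7 or day 30, the CNF3 count was 1 without day 7, and the CNF1 call of Ms4a1 ended after median subtraction and quantile normalization. Of 6 T cell markers 2 fell with CNF1 and 1 rose with MWCNT (-0.55 to 0.36, against -0.33 to 0.19). The riser, Cd2, lost its call without any 1 of the 5 days, and of the CNF1 calls that of Lck ended without day 1 or day 7 and under both other scalings.

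A further 3 lists hold genes tied to what osteopontin is known for, and their counts were not tested against the shares over all genes. With CNF1, CNF2, CNF3 and MWCNT, 21.8%, 15.6%, 9.75% and 12.7% of all genes rose and 19.8%, 15.7%, 9.99% and 9.16% fell. Of 10 fibrosis and matrix genes with a measurement, 3 rose and 2 fell with CNF1, 3 rose with CNF2, 4 rose and 1 fell with CNF3, and 2 rose with MWCNT. The MWCNT count of rises was 0 without day 7, 30 or 90, and the CNF3 count 2 without day 1 or 7. The CNF1 count ran from 1 to 5 over the alternatives, with 5 without day 30. Tgfb1, transforming growth factor beta 1, rose by 0.74, 0.85, 0.61 and 0.43 (SE 0.14), with the MWCNT call ending without day 7, 30 or 90. Fn1, fibronectin, rose by 0.52, 0.59 and 0.57 with CNF1, CNF2 and CNF3 (SE 0.13), and the CNF1 call ended after quantile normalization. Of 10 bone matrix and mineralization genes, 1, 1, 1 and 0 rose and 3, 3, 2 and 3 fell, which became 1 without day 30 for CNF2 and MWCNT and 0 for CNF3. Bmp2 fell with all 4 materials, by 0.59, 0.29, 0.32 and 0.64 (SE 0.09), although the CNF2 and CNF3 calls ended without day 30. Osteopontin is known in mice to favour the Th1 response and to dampen Il10, a cytokine that opposes it. Of 8 genes tied to this response, Il10 among them, 2, 2, 0 and 2 rose, or 2 with each material by unadjusted p, and 0, 0, 1 and 0 fell. Il10 was 1 of the 2 that rose with CNF2 (0.52) and with MWCNT (0.60), and both calls ended without day 3, as did that of Il12a with CNF1. The CNF1 count was 0 without day 30.

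The genes also differed in when they were highest. Over the 4 materials at 2.0 mg/kg, Mmp12 and Gpnmb had their highest mean on day 30, as Spp1 did, at 6.87 ± 1.03 and 3.1 ± 0.45, against 3.51 ± 0.66 and 1.37 ± 0.36 on day 1 (SD, n = 4 materials). The Spp1 value at 2.0 mg/kg, however, averaged 2.85 on day 7 and 2.93 on day 30, while the vehicle averaged -3.77 and -4.17. By material, the largest Spp1 difference was on day 30 for CNF2 and CNF3, on day 7 for CNF1 and on day 90 for MWCNT. Fabp4 was -0.22 ± 0.47 on day 1, when Spp1 already stood at 3.95, and 3.20 ± 0.60 on day 30. For the receptor genes Itgav and Cd44 the highest mean was earlier, which was not tested against Spp1. Itgav was highest on day 1, at 0.95 ± 0.16, and stood at 0.29 ± 0.12 on day 90, and Cd44 was highest on day 3, at 0.79 ± 0.41, and stood at 0.39 ± 0.27 on day 90. With MWCNT, however, Cd44 was highest on day 90 (0.78), as Spp1 was.

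**Figure D5:**
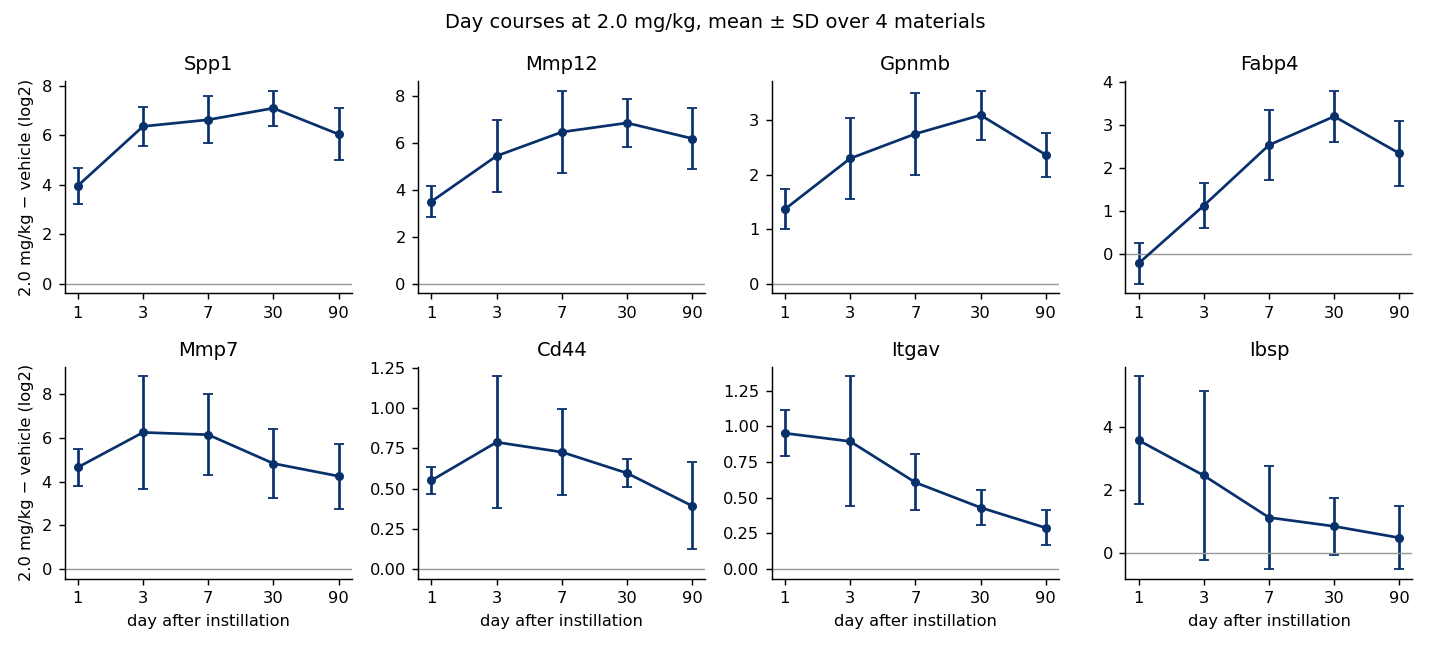
Difference at 2.0 mg/kg minus the own vehicle (log2, vertical axes, a different scale in each panel) against the day after instillation, with days evenly spaced, for Spp1 and 7 other genes; points are means and bars SD over the 4 materials. Spp1, Mmp12, Gpnmb and Fabp4 have their highest mean on day 30, Mmp7 and Cd44 on day 3, and Itgav and Ibsp on day 1.

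The change with time was tested for genes other than Spp1 as the mean effect on days 30 and 90 minus that on days 1, 3 and 7. It passed for 9.28% of genes with CNF1 (3.99% higher late, 5.29% lower), 1.8% with CNF2 (0.911% and 0.892%), 0.0816% with CNF3, all higher late, and 0.0565% with MWCNT (0.0502% and 0.00628%). With CNF1 it was -0.63 ± 0.21 for Cd44 and -0.65 ± 0.20 for Itgav (limma adjusted p 0.049 and 0.032). The 1478 genes that passed with CNF1 numbered 19 after quantile normalization, 18 without day 30 and 2 without day 90, so these calls rest on the scaling and on both late days. Of the calls named here, those of Cd44 and Itgav ended under each of these 3 settings. For Gpnmb and Trem2 the change did not pass with any material (limma).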

How the data were processed

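Lung RNA was labelled with Cy3 and hybridised to Agilent one-colour rat arrays. The authors deposited values per probe that were read as log2 values, and per the submitters' processing notes the software was Agilent Feature Extraction 12.0.3.1. The normalization steps are not given in the sources used here. The deposited log2 values are centred on 0 for each probe, the base of the logarithm is not stated and was taken as 2, and they hold no signal, background or detection call. The series table equalled the 80 single-array tables (largest difference 0). No depth applies to arrays, and the number of arrays limits the precision.

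Of 41103 probes, 41012 were rat probes and 91 control spots. The platform annotation, updated through RefSeq (GRCr8), gave 20932 probes 1 symbol, and probes of a gene were averaged to 15925 genes. No filter on dim probes was possible.

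Spp1 was described as each exposed array minus the vehicle array of its material and day. Other genes were tested with limma 3.58.1 in R 4.3.3. The model held 20 material-by-day blocks and 12 material-by-dose effects, or 24 effects of material, dose and period (days 1, 3 and 7, or days 30 and 90). P-values were adjusted over all genes by Benjamini-Hochberg at 0.05. Contrasts were 2.0 mg/kg minus vehicle for each material, MWCNT minus the mean of the 3 cellulose effects, and late minus early. Since a group has 1 array, days serve as the replication, and the spread may be partly technical. In simulated data of 15925 genes, 89% of 100 genes changed 2-fold and 99% of 100 changed 4-fold were recovered for the CNF1 effect. For MWCNT minus cellulose these were 79% and 98%, and for CNF1 late minus early 49% and 80%. Wrong calls among unchanged genes numbered 10, 14 and 5 in these 3 contrasts. The simulated noise was independent for each gene and array, without array-wide shifts or genes that vary together. The rates may therefore not hold for the real arrays. Python 3.11.15 with numpy 2.4.6, pandas 2.3.3 and matplotlib 3.10.9 was used for the rest.

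Genes named were Spp1, all measured receptors, enzymes and family members, up to 4 members with the smallest p over the 4 materials of each other list, the 10 genes with the highest and the 5 with the lowest Pearson r with Spp1, passing over symbols that are only identifiers, and the neighbours with values, 2 on each side. The members and the lists were chosen with earlier results of these data known. Alternatives were median subtraction, quantile normalization, a common vehicle, the vehicle and 2.0 mg/kg arrays alone, leaving out each day, a 2-fold minimum, and other measures of likeness.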

Additional observations from a re-analysis of the deposited data

Results flagged for a closer look

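Among the 101 named genes other than Spp1, 8 differed between MWCNT and the mean of the 3 cellulose effects at 2.0 mg/kg. This was a limma test of the difference itself, which 0.829% of all genes passed. Many of the names were chosen by small p or by likeness to Spp1 in these arrays, so counts of them cannot be weighed against such shares. MWCNT was lower for Mmp9 (-2.36) and Ctsk (-2.07). It was higher for the neutrophil markers Cd177 (2.84), S100a9 (2.16), Csf3r (1.14) and S100a8 (1.36), for the B cell marker Cd79b (0.58) and for the type 2 cell marker Lamp3 (0.57). With the vehicle and 2.0 mg/kg arrays alone, 7 of these 8 calls ended, all but that of Cd177, and 6 ended without day 30.

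The limma test of days 30 and 90 against days 1, 3 and 7 picked out 22 of the 101 named genes for CNF1, where 9.28% of all genes passed. Of the osteopontin receptors and enzymes, Cd44 (-0.63), Itgav (-0.65), Itga5 (-0.56), Mmp7 (-3.14), Mmp9 (-2.37) and Fam20c (-1.03) had a lower effect on the late days, and Phex (0.86) a higher one. Ctsb (-0.68), Ccr2 (-1.09) and Hk3 (-1.44) were also lower late. The epithelial markers Aqp5 (0.63), Ager (0.72), Cav1 (0.89), Hopx (0.52), Cyp2f4 (1.34) and Scgb1a1 (0.71), the fibroblast markers Tcf21 (0.94) and Pdgfra (0.66), and Zeb1 (0.52), C1qtnf7 (0.75), Slc6a4 (0.72) and Abcg3l1 (0.66) were higher late. For CNF2, where 1.8% of all genes passed, the same test picked out Itga5 (-0.37), Il12rb1 (-1.32) and Cyp2f4 (2.05). All 25 of these calls ended after quantile normalization, all 25 without day 30 and all 25 without day 90. With the vehicle and 2.0 mg/kg arrays alone 22 ended, without day 3 there were 19 that ended, and 9 ended after median subtraction.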

How the results depend on the processing

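The direction of every mean Spp1 difference was the same under each alternative. After quantile normalization 3 of them moved by more than their SD over days, to 2.59 for 0.5 mg/kg CNF1 (3.69 as deposited), 4.22 for 1.0 mg/kg CNF3 (5.19) and 1.78 for 0.5 mg/kg MWCNT (2.76). Counts of genes called at 2.0 mg/kg moved more. For CNF1 the 6631 genes became 4035 after quantile normalization and 512 with a 2-fold minimum (4631 to 7367 leaving out a day). For CNF2 4982 became 380 with that minimum (2762 without day 3, up to 5784). For CNF3 3143 became 4754 after quantile normalization, 1402 with the vehicle and 2.0 mg/kg arrays alone, 5064 with a common vehicle and 243 with the minimum (1452 without day 1, up to 3512). For MWCNT 3481 became 1866, 5355 and 256 in these last 3 settings (2120 without day 7, up to 3276). For MWCNT minus cellulose 132 became 5, 2360 and 38 (16 without day 7, up to 163), and the share of higher calls was 69.7%, against 85.1% after quantile normalization and 47% without day 90. For late minus early, CNF1 had 1478, and 19 after quantile normalization, 246, 3423 and 359 in these 3 settings (2 without day 90, 18 without day 30, up to 1829). CNF2 had 287, and 165 after median subtraction, 0 after quantile normalization, then 0, 2471 and 122 (1 without day 30 or 90, up to 916). CNF3 had 13, and 5 after quantile normalization, then 0 and 140 in the first 2 settings (2 without day 30, up to 56). MWCNT had 9, then 0, 163 and 5 (0 without day 1 or 3, up to 17). Where limma called 0 genes here, between 739 and 2487 had an unadjusted p under 0.05. The share of higher calls for CNF1 late minus early was 43%, against 18.8% after median subtraction and 5.26% after quantile normalization. For CNF3 it was 100%, against 80% after quantile normalization. Of the 10 genes most like Spp1, 5 were shared when the 60 differences were used and 6 with the vehicle and 2.0 mg/kg arrays alone. The cause of these moves was not tested, apart from fewer arrays or a further threshold where the setting itself removes arrays or genes. Of 286 called effects of named genes, 178 were called under every alternative. Each Spp1 probe alone was not run, since there was 1 probe. Exposed and vehicle arrays were matched by material and day in all fits but that with a common vehicle, which matched them by day alone. By replicate number no paired analysis was possible because each group had 1 array. Signal over background was not part of the values, so its limits could not be given.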
